A study of Sus scrofa with 3 samples.

Results

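DNA replication and mitosis genes were read on 142 probe sets for 100 genes, out of 6765 named genes on a porcine expression array. The members were chosen by gene symbol: cyclins A, B and E, CDC, CDCA and CDK genes, kinesins, MCM, ORC, GINS, RFC, RPA, polymerase alpha, delta and epsilon subunits, ribonucleotide reductase, E2F, centromere, condensin and cohesin genes, and single genes such as TOP2A, PCLAF and BIRC5. This choice and the role groups were made with earlier results of these data known, so the counts below are not an independent result. Because the choice went by the letters of the name, it also took in 31 genes that mostly serve other processes, such as the small GTPase CDC42 and the cargo-carrying kinesin KIF5B. The other 69 are called the division genes below, although POLDIP2 and POLDIP3, which are only named for binding a polymerase, are among them. The markers MKI67 and TK1, which the rule also names, had 0 probe sets with their symbol here.

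The 3 arrays hold lung tissue RNA of minipigs kept free of specific pathogens. The sham sample is from a sham minipig. The other samples are from minipig lung after ischemia-reperfusion (I-R), made by a passing block of the left pulmonary artery without involving the bronchus: one is the operated side and the other the non-operated side. The sources used here do not give breed, sex, age, the length of the block or the time of sampling, and do not say whether both sides came from 1 animal. With 1 array a group, no difference here could be tested or set against a spread between animals.

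In a dividing cell, origins of replication are licensed when the origin recognition complex loads the MCM helicase, CDC45 and GINS switch the helicase on, and polymerases held to the DNA by the PCNA ring copy both strands. Mitosis is then driven by cyclin B with its kinase and by Aurora and Polo kinases, and ends when the anaphase-promoting complex marks cyclin B for destruction. Many of these genes are transcribed only in cycling cells, through E2F factors before S phase and through related complexes before mitosis. In healthy adult lung most cells rest, and these transcripts come from the minority that cycle.

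The values are signals in the arrays' own units, brought by the authors' MAS5 processing to a common scale on each array. A signal counted as low when it did not exceed a floor, the median of all probe sets on that array, which was 161 for sham and 159 for either lung after ischemia-reperfusion. Ratios were taken after low values were raised to the floor, and a fold is written as "at least" where this raised 1 of its values. Counts cover genes that exceeded the floor on 1 or both arrays compared, and a gene was called higher or lower at 2-fold. Of the 100 genes, 68 exceeded the floor on all 3 arrays, 21 on 1 or 2 arrays, and 11 on 0 arrays. All 62 division genes above the floor on any array exceeded it on sham, against 49 on the non-operated and 46 on the operated array, so this filter favoured genes high in sham. Over all 69 division genes, with no filter, sham gave the highest of the 3 signals for 65, beside 48.1% of all 6765 named genes.

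Markers of lung tissue were present, though not all of them on sham. SFTPC, a surfactant protein gene of alveolar type 2 cells, read 22178 in sham, 24072 in the non-operated lung and 23424 in the operated lung. AGER, a marker of alveolar type 1 cells, read 32.2 in sham, below the floor, against 309 and 281. The endothelial gene CDH5 read 974, 3740 and 3388 and CAV1, of endothelial and type 1 cells, 7184, 16326 and 16896, both lower in sham. The sham array also stood apart in a gene tied to the animal's sex: EIF1AY, a gene of the Y chromosome, read 1.61 in sham, 1646 in the non-operated and 1893 in the operated lung. The procedure and a difference between animals, sex included, cannot be told apart in the comparisons with sham. Nor can fewer dividing cells be told from less of each transcript per cell, since whole tissue was measured.

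Most division genes had lower signals in both lungs after ischemia-reperfusion than in sham. In the operated lung against sham, 40 of 62 counted division genes were at least 2-fold lower, and 0 were at least 2-fold higher. Their median log2 ratio was -1.43. The background was 8.79% of 5097 named genes at least 2-fold lower and 8.65% higher, with a median of -0.11. In the non-operated lung against sham, 36 of 62 were lower and 0 higher at a median of -1.28, beside a background of 8.55% lower and 8.96% higher and a median of -0.10. Differences of 4-fold or more were counted for 17 members in the operated and 19 in the non-operated lung, all lower, beside 1.45% and 1.39% of all named genes lower and 1.63% and 1.6% higher. Both comparisons use the same sham array, so they are not independent of each other.

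A gene counted only because sham exceeded the floor had to come out lower, so the counts were also taken in other ways. Without a floor, all 69 division genes counted, and 47 were lower in the operated lung and 42 in the non-operated lung, with 0 higher in either. The background without a floor was 13.0% lower and 11.0% higher in the operated lung, and 12.5% lower and 12.0% higher in the non-operated lung. Among the 68 of all 100 genes above the floor on all 3 arrays, 26 were lower and 4 higher in the operated lung, and 24 lower and 4 higher in the non-operated lung. The matching backgrounds were 8.0% lower and 8.31% higher, and 7.82% lower and 8.51% higher.

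The 31 genes of other processes had medians near the background. Of 26 counted in the operated lung against sham, 1 was lower and 4 were higher, with a median of -0.11. Of 27 counted in the non-operated lung, 1 was lower and 4 higher, with a median of 0.03. The shares were 3.85% lower and 15.4% higher in the operated lung, beside 8.79% and 8.65% of named genes. In the non-operated lung they were 3.70% and 14.8%, beside 8.55% and 8.96%. These shares rest on few genes.

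**Figure D1:**
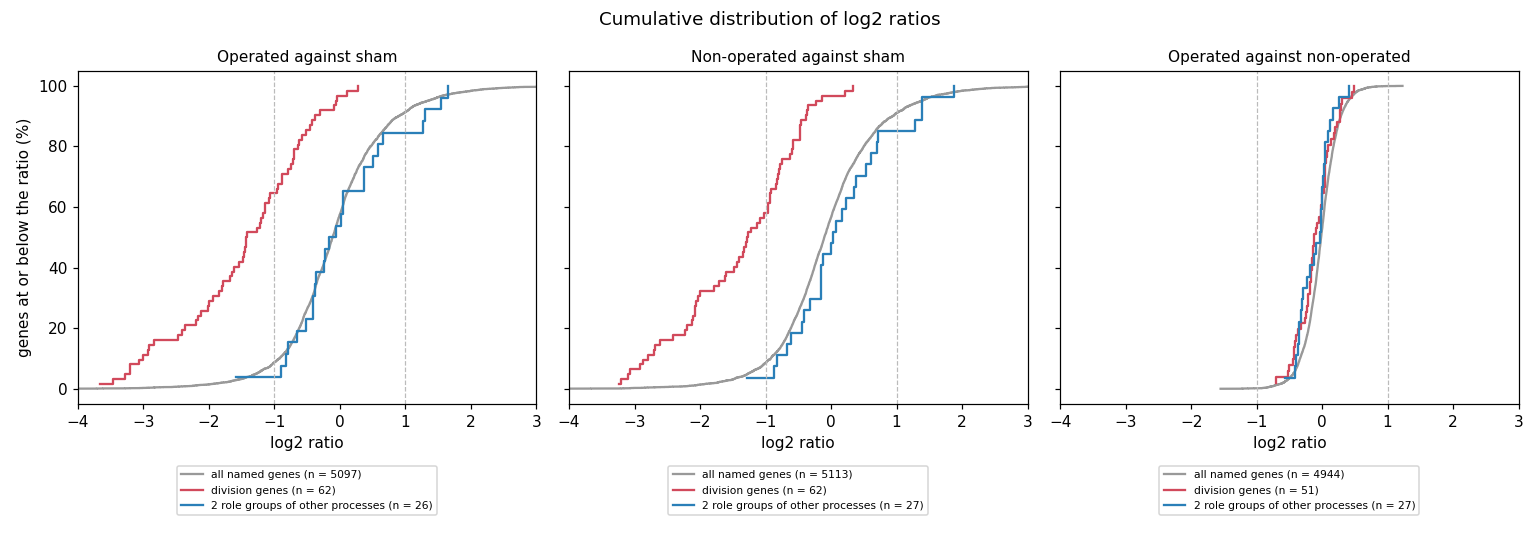
Cumulative share of genes (y axis, percent) at or below each log2 ratio (x axis, cropped at -4 and 3) for all named genes (grey), division genes (red) and the 2 role groups of other processes (blue), in each comparison, after low values were raised to the floor. The red curve lies to the left of the grey one in both comparisons with sham, with medians of -1.43 and -1.28, and runs close to it between the operated and the non-operated lung.

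At origins, the licensing and firing genes had the lowest median of the role groups, -2.00 in either lung, with 6 of 9 counted genes lower and 0 higher. MCM2, MCM3 and MCM5, subunits of the replicative helicase, read 879, 747 and 847 in sham. In the non-operated lung the same genes read 211, 187 and 144, and in the operated lung 155, 166 and 138. Sham was thus far above both lungs, where these genes lay near or below the floor, and MCM5 in the operated lung was at least 5.33-fold lower. MCM4 lay below the floor on every array, at 105 in sham.

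Of the initiation factors that join the helicase, CDC45 read 674 in sham, 164 in the non-operated and 169 in the operated lung, which is 4.11-fold and 4.0-fold lower. GINS4, a subunit of the GINS complex that travels with CDC45, read 306, 223 and 197 in the same order and stayed within 2-fold. GINS3 was below the floor on all 3 arrays.

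Subunits of the origin recognition complex differed among themselves. ORC1, the largest subunit, whose level varies through the cell cycle, read 729 in sham, 121 in the non-operated and 148 in the operated lung and was at least 4.59-fold lower in each of them. ORC6 read 1290, 395 and 357, or 3.26-fold and 3.61-fold lower. ORC3 read 449, 230 and 277 and did not reach 2-fold, and ORC4 was nearly level at 1431, 1103 and 1366. The log2 ratios of these 4 subunits spanned 2.13 in the operated and 1.82 in the non-operated lung, with ORC1 at a bound. The median SD between probe sets of the same division gene was 0.79 and 0.54, over the 9 genes with several above the floor. A range over 4 genes is wider than an SD of the same values, and some probe set ratios are bounds. The range and the SD are therefore not like measures.

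**Figure D2:**
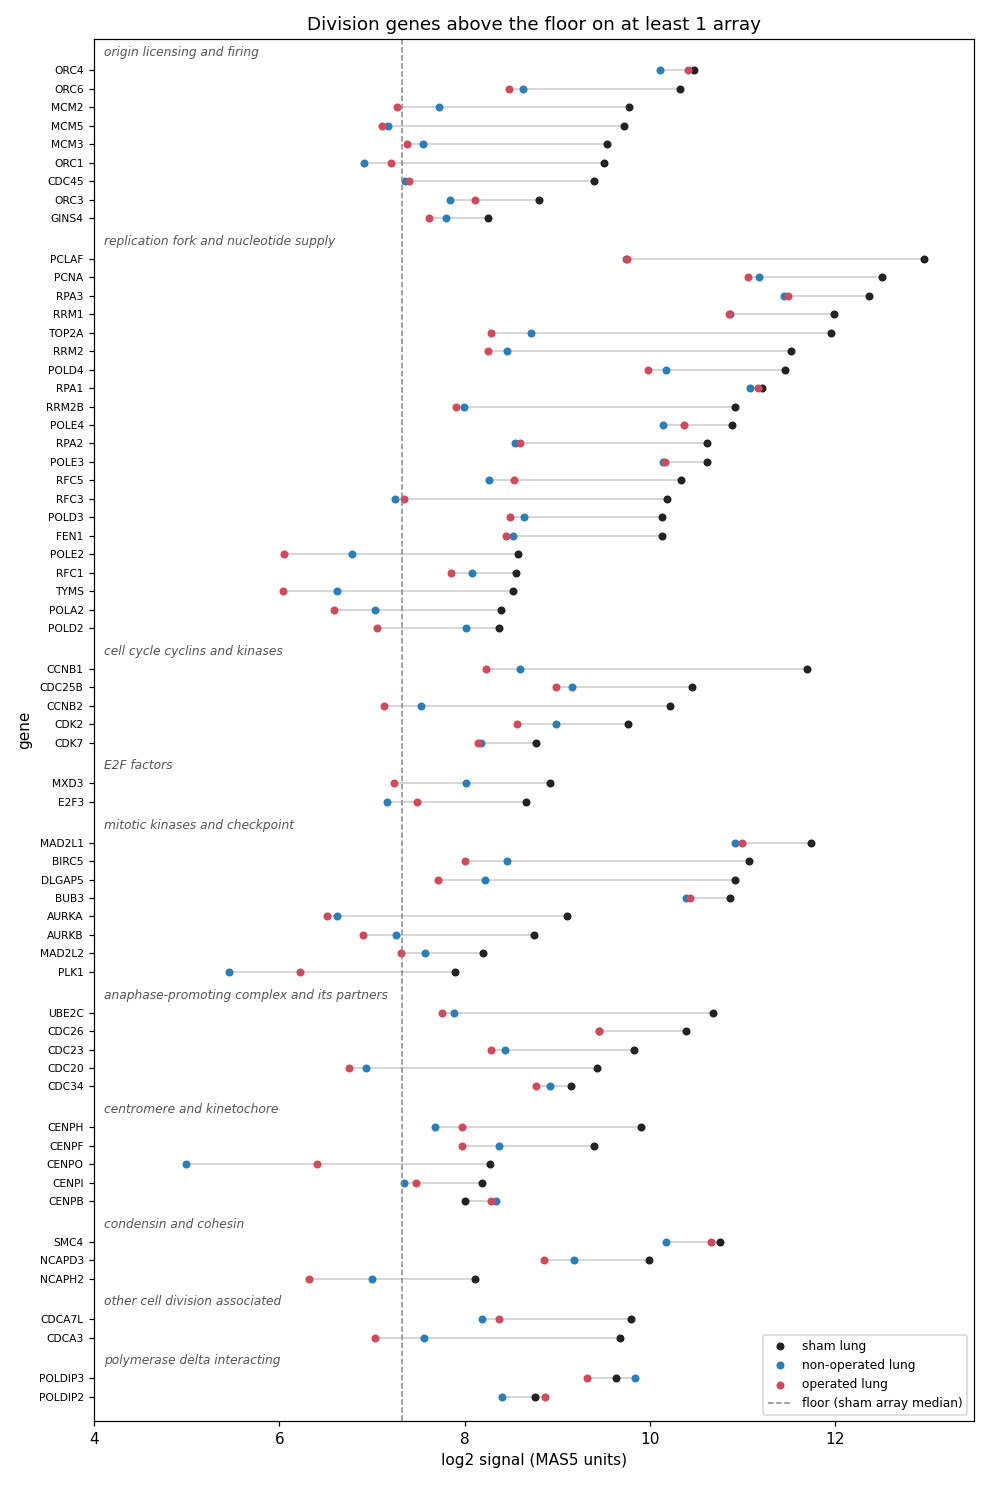
Log2 signal (x axis, MAS5 units) of each of the 62 division genes above the floor on at least 1 array, grouped by role, on the sham (black), non-operated (blue) and operated (red) arrays, with 1 point per array and the sham floor as a dashed line. Sham is the rightmost point for 59 genes, and the exceptions are CENPB, POLDIP2 and POLDIP3.

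At the replication fork, 16 of 21 counted genes were lower in the operated lung and 15 in the non-operated lung, with 0 higher and medians of -1.45 and -1.29. TOP2A, the topoisomerase that resolves the tangles left behind copied DNA, read 3975 in sham, 423 in the non-operated and 312 in the operated lung. It had the lowest log2 ratio of all members in both comparisons with sham, -3.67 in the operated and -3.23 in the non-operated lung. PCLAF, a small protein that binds the PCNA ring, read 7972, 860 and 863, or -3.21 in each lung. PCNA itself kept a high signal, at 5829 in sham, 2318 in the non-operated and 2134 in the operated lung, and was 2.52-fold and 2.73-fold lower.

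The clamp loader that places PCNA on DNA showed unequal subunits. RFC3 read 1166 in sham, 152 in the non-operated and 163 in the operated lung, the former below the floor, so that it was at least 7.35-fold and 7.14-fold lower. RFC5 read 1297, 308 and 372, or 4.21-fold and 3.49-fold lower. RFC1, the large subunit, read 375, 271 and 231 and stayed within 2-fold in either lung. Subunits of the single-strand binding complex were unequal too: RPA2 was 4.05-fold lower in the operated lung, RPA3 1.84-fold and RPA1 1.03-fold. RPA1 read 2379 in sham, 2165 in the non-operated and 2300 in the operated lung, and RPA2 read 1575, 373 and 389.

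Polymerase subunits also differed in size of ratio. POLD3 and POLD4, accessory subunits of polymerase delta, were 3.12-fold and 2.79-fold lower in the operated lung, from sham signals of 1124 and 2830. POLE2, an accessory subunit of polymerase epsilon, read 382 in sham and was below the floor in both lungs. POLE3 and POLE4, histone-fold subunits of that polymerase, read 1571 and 1901 in sham, 1131 and 1133 in the non-operated lung and 1150 and 1323 in the operated lung, all within 2-fold. POLD2 was the one fork gene called lower against sham on the operated side alone, at 332, 258 and 133. Of the enzymes that finish and prime strands, FEN1, the flap nuclease of lagging-strand synthesis, was 3.21-fold lower in the operated lung, from 1120 in sham to 349. POLA2 of the primase complex read 335 in sham and was below the floor in both lungs, and PRIM2 was below the floor on all arrays.

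Nucleotide supply genes were also lower. RRM2, the small subunit of ribonucleotide reductase whose level varies with the cell cycle, read 2962 in sham, 353 in the non-operated and 305 in the operated lung. Its large partner RRM1 read 4087, 1868 and 1851, so the ratios were 9.72-fold against 2.21-fold lower in the operated lung. The probe set named RRM2B, the p53-responsive small subunit, read 1938, 256 and 240, or 7.58-fold and 8.06-fold lower. RRM2B is a close relative of RRM2, and whether its probe set also reads RRM2 was not tested. TYMS, which makes thymidylate, read 369, 98.6 and 65.7 and was below the floor in both lungs.

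**Figure D3:**
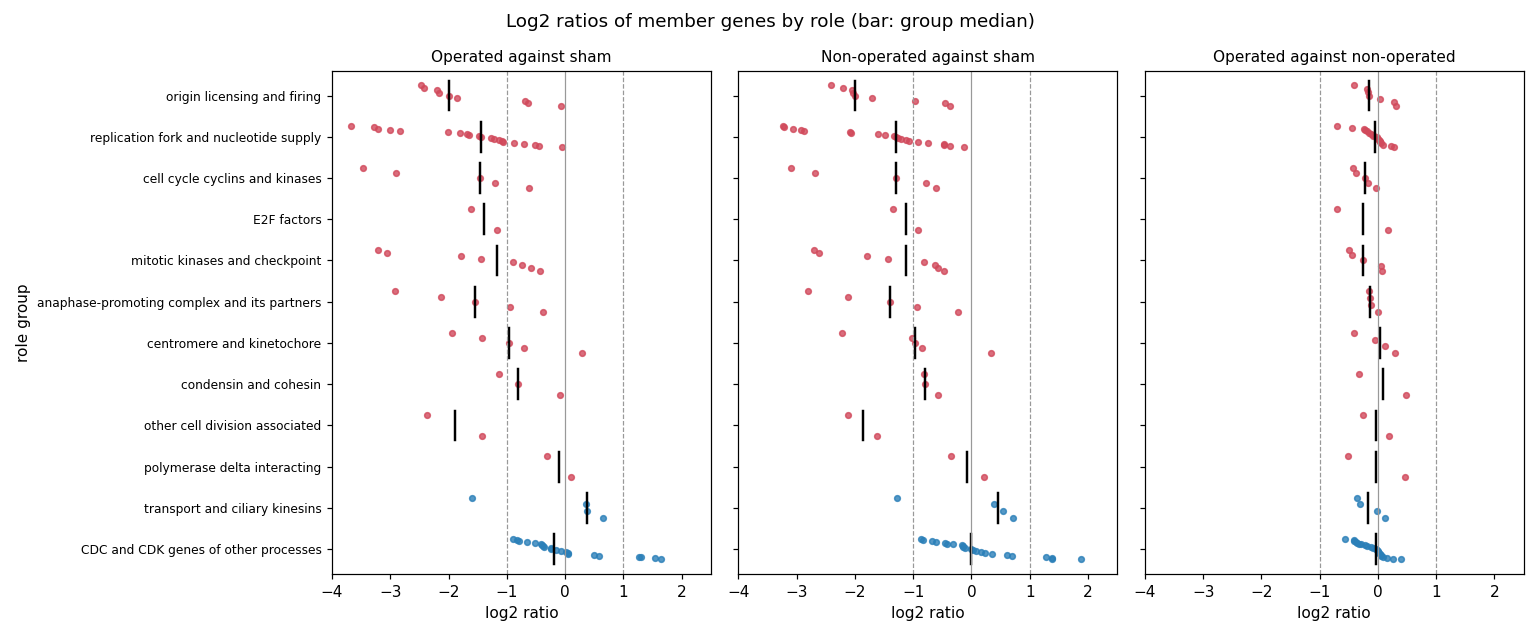
Log2 ratio (x axis) of each counted member gene (points) by role group (y axis), with the group median as a black bar and dashed lines at 2-fold, for the 3 comparisons; division roles are red and other processes blue. In both comparisons with sham the red groups reach from about the 0 line to beyond -3, whereas between the operated and the non-operated lung all 78 counted genes lie within 2-fold.

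Among the cyclins and cyclin-dependent kinases, the mitotic cyclins had the lowest ratios. CCNB1, which encodes cyclin B1, read 3327 in sham, 388 in the non-operated and 301 in the operated lung. CCNB2 read 1192, 185 and 140, or 6.43-fold lower in the non-operated lung, with a bound of 7.51-fold in the operated lung. CDC25B, the phosphatase that releases the cyclin B kinase, read 1406, 571 and 509, or 2.46-fold and 2.77-fold lower. CDK2, the kinase partner of cyclins A and E, read 873, 510 and 379 and was 1.71-fold and 2.30-fold lower. CDK7, which serves both as CDK-activating kinase and in transcription, read 438, 289 and 284 and stayed within 2-fold. CCNA2 and CDC25C did not exceed the floor on any array, and CCNA2 read 156 in sham, 26.4 in the non-operated and 22.6 in the operated lung.

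E2F3, an activating E2F factor, read 404 in sham, 143 in the non-operated and 179 in the operated lung, at least 2.55-fold and 2.25-fold lower. It was the only E2F gene with a probe set here. MXD3, a partner of MAX listed with the E2F factors, read 487, 259 and 150. It was 1.88-fold lower in the non-operated lung, with a bound of 3.07-fold in the operated lung.

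Of 8 mitotic kinase and checkpoint genes, 4 were at least 2-fold lower in either lung and 0 were higher. DLGAP5, a spindle protein regulated by Aurora A, read 1936 in sham, 297 in the non-operated and 210 in the operated lung. BIRC5, the survivin subunit of the chromosomal passenger complex, read 2153, 352 and 258. The Aurora kinase genes were lower as well: AURKA read 550, 98.7 and 91.1, and AURKB 430, 154 and 120, so both were below the floor after I-R and lower than sham by bounds of 3.46-fold and 2.71-fold in the operated lung. PLK1, the mitotic Polo kinase, read 238, 43.8 and 74.5, and its bound of 1.5-fold is set by a sham signal just above the floor. The checkpoint genes MAD2L1 and BUB3 stayed within 2-fold, at 3418, 1935 and 2043 for MAD2L1 and 1873, 1343 and 1388 for BUB3.

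Around the anaphase-promoting complex, 3 of 5 genes were lower in either lung and 0 higher. UBE2C, the ubiquitin-conjugating enzyme that works with this complex, read 1646 in sham, 237 in the non-operated and 217 in the operated lung, or 6.96-fold and 7.59-fold lower. CDC20, its mitotic activator, read 691, 122 and 108 with both I-R values below the floor. The core subunits were less different: CDC23 was 2.91-fold lower in the operated lung and CDC26 1.92-fold. CDC34, an enzyme that works with another ubiquitin ligase, read 568, 487 and 437.

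Among chromosome structure genes, the median log2 ratio in either lung was -0.96 for centromere and kinetochore genes and -0.80 for condensin genes. These medians are bounds set by the floor, from CENPO and NCAPH2. The deposited log2 ratios of CENPO and NCAPH2 were -1.86 and -1.79 in the operated lung, and -3.28 and -1.11 in the non-operated lung. CENPH, of the inner kinetochore, read 961 in sham, 206 in the non-operated and 252 in the operated lung, or 4.67-fold and 3.82-fold lower. CENPF, a kinetochore protein that accumulates before mitosis, read 676, 332 and 251. CENPI and CENPO, further kinetochore genes, read 291 and 309 in sham, 163 and 31.8 in the non-operated lung and 178 and 84.8 in the operated lung, and neither was called lower, the CENPO ratio being a bound set by the floor. CENPB, which binds centromeric repeats, was the exception, with 256 in sham, 324 in the non-operated and 311 in the operated lung. The condensin gene NCAPD3 read 1021, 581 and 464, or 1.76-fold and 2.20-fold lower. NCAPH2, a further condensin gene, read 276 in sham and was below the floor in both lungs. CDCA3 and CDCA7L, both named for association with cell division, read 817 and 892 in sham, 189 and 291 in the non-operated lung and 131 and 332 in the operated lung. POLDIP2 and POLDIP3 were within 2-fold in both comparisons with sham by the probe sets that stood for them. A further POLDIP2 probe set read 538 in sham, 302 in the non-operated and 230 in the operated lung. It was 1.78-fold and 2.34-fold lower, so the POLDIP2 probe sets lay on opposite sides of 0 in the operated lung.

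The 11 members below the floor on every array included MCM4, GINS3, PRIM2, CCNA2, CDC25C, CENPT and KIF20A, the only member grouped as a mitotic kinesin. The rest were KIF5C, CDK5, PLK3 and CDC42EP2, among genes of other processes. No fold is given for these 11 members.

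Of the members that mostly serve other processes, 4 were at least 2-fold higher than sham in both lungs. CDC42EP3, an effector of the CDC42 GTPase, read 556 in sham, 2037 in the non-operated and 1620 in the operated lung. CDC42BPA and CDC42BPB, kinases that bind CDC42, read 724 and 433 in sham, 1763 and 1132 in the non-operated lung and 1786 and 1039 in the operated lung. PLK2, a Polo kinase induced by stress and serum rather than in mitosis, read 405, 1058 and 1268, or 2.61-fold and 3.13-fold higher. CDC42 itself was nearly level at 4882, 3904 and 4149 by the probe set that stood for it. A further CDC42 probe set read 2985, 1944 and 1685, or 1.54-fold and 1.77-fold lower. KIF2A, a microtubule-depolymerising kinesin that also acts at spindle poles, was the only gene of these groups called lower, at 678, 279 and 225. The cargo kinesin KIF5B and the ciliary kinesin KIF3A stayed within 2-fold, at 1119, 1844 and 1444 for KIF5B and 305, 443 and 481 for KIF3A.

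The operated and the non-operated lung differed little in these genes. Of 78 counted members, 0 were at least 2-fold higher and 0 lower, and 73 had a log2 ratio smaller than 0.5 in size. The background was equally narrow, with 0.0607% of 4944 named genes higher and 0.182% lower. Over genes above the floor on all 3 arrays it was 0.0446% and 0.156%, and without a floor 3.41% and 4.72%, where 1 member of 100, CENPO, was higher and 0 were lower. The SD of the log2 ratios was 0.26 for the members and 0.26 for all named genes, against 0.82 for all named genes in either comparison with sham. The median over the division genes was -0.12, beside -0.02 for all named genes.

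Within that narrow range the role groups did not share a direction. Ratios were below 0 for 32 of 51 division genes, beside 2611 of 4944 named genes. They were below 0 for 5 of 5 cyclin and kinase genes and 4 of 4 genes around the anaphase-promoting complex, CDC26 there being at 0.00, but for 3 of 5 mitotic kinase and checkpoint genes, 2 of 4 centromere genes, 1 of 2 condensin genes and 10 of 18 fork genes. The log2 ratio was -0.50 for DLGAP5, -0.45 for BIRC5, -0.44 for TOP2A and -0.37 for CCNB1, while it was 0.00 for PCLAF and -0.01 for RRM1. At the other end were SMC4 at 0.49 and POLDIP2 at 0.46, for which a further probe set gave 0.09 and -0.39. The lowest of all members were MXD3 and POLD2 at -0.70 each, both bounds, with deposited ratios of -0.78 and -0.96. CDC42EP1 at -0.57 and POLDIP3 at -0.52 came next. The median SD between probe sets of the same division gene was 0.36 in this comparison, over 4 genes. The sizes for DLGAP5, BIRC5, TOP2A and CCNB1 are close to it, and those for MXD3 and POLD2 are larger. Probe sets lay on the same side of 0 in 1 of 4 division genes and 5 of 10 members with several, beside 51.4% of all named genes with several, and no repeat array shows how much 2 samples of 1 lung would differ.

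Different probe sets of a gene are the only internal check of these ratios. Of 15 members with several probe sets counted in the operated lung against sham, 13 had them all on the same side of 0, and of 8 such genes called at 2-fold, 8 did, but only 3 had all of them beyond 2-fold. Over all named genes with several, the matching counts were 756 of 1004 and, of 186 called, 179 on the same side and 79 with all beyond 2-fold, so the members' called genes were near that share. All these counts use ratios after low values were raised to the floor. A further probe set each of AURKA, CDC45 and POLE2 gave only a bound within 2-fold in the operated lung. Their deposited log2 ratios were -1.53, -1.74 and -2.28. Those of CDK2 and CDC42EP3 within 2-fold were measured, at -0.12 and 0.77. In the operated lung RFC3 gave -2.84 with one probe set and -1.98 with the other, the latter a bound. POLD3 gave -1.64 and -1.25. Averaging the probe sets of a gene, those below the floor included, gave an operated lung ratio of -2.39 in place of -3.21 for PCLAF. For UBE2C it gave -1.21 in place of -2.92, but the former is a bound, as the averaged value fell below the floor. The deposited ratios of the UBE2C probe sets were -2.92 and -2.68. With its lower probe set DLGAP5 gave -1.93 in place of -3.21, also a bound, from a deposited ratio of -3.41. SMC4, a condensin subunit, is a case of disagreement in size: one probe set read 2846 in sham, 761 in the non-operated and 810 in the operated lung, and the other, which stood for the gene because of its higher mean, read 1730, 1160 and 1626. CDK2 gave -1.20 and -0.12. MCM2 had 3 probe sets, of which only 1 exceeded the floor, and a further one read 2.24, 56.1 and 62.5, all below the floor and therefore not counted.

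**Figure D4:**
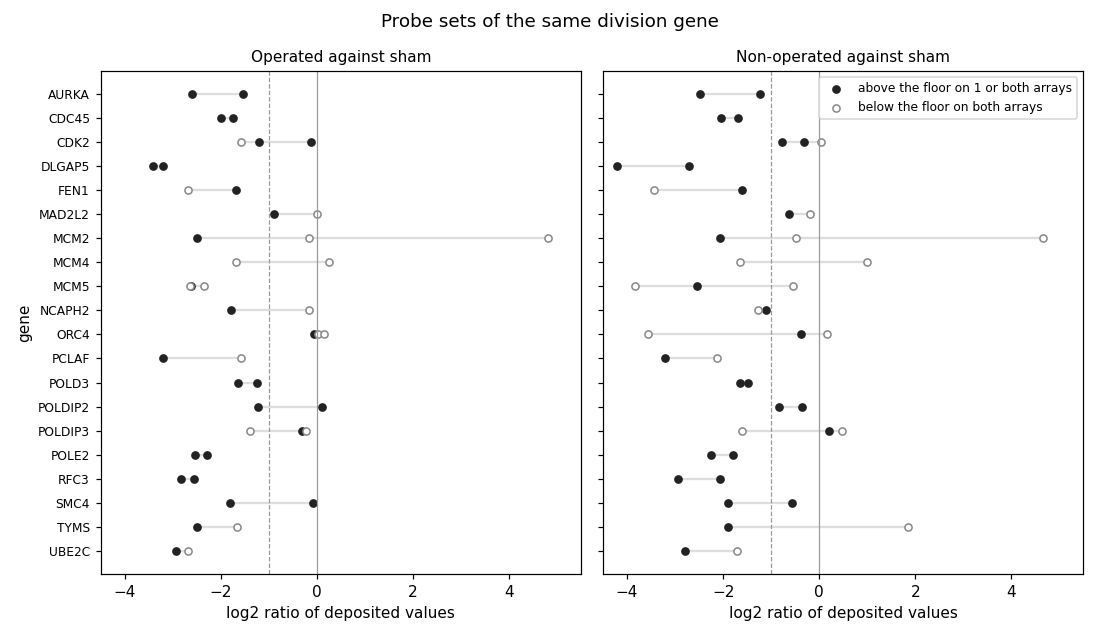
Log2 ratio of the deposited values (x axis, no floor) for every probe set of the 20 division genes that have several, against sham, with filled points for probe sets above the floor on 1 or both arrays and open points for those below it on both. Filled points lie at or below 0 in both comparisons apart from POLDIP2 at 0.10 in the operated and POLDIP3 at 0.21 in the non-operated lung, and the points far to the right, such as that of MCM2, are open.

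Division genes that the naming rule missed were mostly lower than sham as well. Of 68 such genes listed, 34 had a probe set, and of 31 counted, 27 were lower in the operated and 25 in the non-operated lung, with 0 higher. Of these 31, 13 exceeded the floor only on sham and so had to come out lower. Without a floor, 32 and 30 of 34 were lower and 0 higher, and of the 17 above the floor on all 3 arrays, 17 and 15 were lower, with medians of -1.73 and -1.75. PTTG1, the securin that keeps sister chromatids from being separated before anaphase, read 1550 in sham, 236 in the non-operated and 201 in the operated lung. MYBL2, a transcription factor of the complex that turns on mitotic genes, read 1837, 286 and 273. NUF2, of the outer kinetochore, read 1137, 98.4 and 82.8, and NUSAP1, a spindle protein, read 2020, 488 and 369. FOXM1, a further mitotic transcription factor, was below the floor on all arrays.

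Genes that restrain the cycle did not share that direction. Of 14 counted, 5 were higher and 1 lower in the operated lung, and 4 higher and 1 lower in the non-operated lung, with medians of 0.55 and 0.51. CDKN1A, which encodes the CDK inhibitor p21, read 462 in sham, 2017 in the non-operated and 1863 in the operated lung, or 4.36-fold and 4.03-fold higher. GADD45B, a stress-induced growth arrest gene, read 351, 1071 and 958. SESN1, a p53-responsive gene, read 1035, 2633 and 1930, or 2.54-fold higher in the non-operated and 1.86-fold in the operated lung. GADD45A went the other way at 3056, 2255 and 1562, within 2-fold. In either lung 9 of the 14 ratios were above 0 and 5 below. CDKN3, the one called lower, is a phosphatase of CDKs that is itself abundant in dividing cells, and it read 928, 197 and 155.

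Upstream of the cycle, MYC was level at 1351 in sham, 1474 in the non-operated and 1351 in the operated lung. CKS2 and CKS1B, small partners of CDKs, were 4.53-fold and 2.37-fold lower in the operated lung, and they were the lower ones of 5 counted genes of G1 cyclins and mitogen response, with 0 higher. Of 8 counted DNA repair genes, 5 of excision repair and 3 of double-strand break joining (XRCC4, XRCC5 and XRCC6), 0 were higher. XRCC6, a subunit of the Ku end-joining heterodimer, was the one called lower in the operated lung, at 2.06-fold, and 0 were called lower in the non-operated lung.

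Markers of B cells and germinal centres were lower alongside the division genes. Of 7 B and plasma cell markers, 4 were lower in the operated and 5 in the non-operated lung, with 0 higher, and their summed signal was 32936 in sham, 19753 in the non-operated and 19843 in the operated lung. CD79B, a B cell receptor chain, read 2378, 73.0 and 86.6, and SPIB, a B cell transcription factor, 1425, 131 and 130, so both defining genes were below the floor in either lung, whereas JCHAIN and XBP1, both high in plasma cells, stayed within 2-fold. TNFRSF17, a receptor of plasma cells, read 505, 209 and 160, or 2.41-fold and 3.15-fold lower. All 3 germinal centre markers on the array were lower in the operated lung, with CXCL13 at 6725, 346 and 224 and EAF2 at 3255, 390 and 520, and the summed signal was 12948, 2247 and 2184. Of 11 counted T and NK cell markers, 5 were lower and 1 higher in either lung, and the summed signal over 15 was 6855, 4018 and 3801. Their part in the lower division genes was not tested.

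Markers of other lung cells were higher alongside them. Of 11 counted endothelial markers, 10 were higher in the operated and 9 in the non-operated lung, with 0 lower, and the summed signal over 15 was 9738 in sham, 31339 in the non-operated and 28608 in the operated lung. Of 6 alveolar type 1 markers, 4 and 5 were higher, with a summed signal of 12484, 34379 and 34755. Of these sums 7184, 16326 and 16896 came from CAV1, which endothelial cells share. AGER, a bound, was not called higher in either lung. Monocyte and macrophage markers summed to 15116, 31324 and 30245, with 5 of 9 counted genes higher and 1 lower in the operated lung, and 5 of 10 higher and 0 lower in the non-operated lung. Alveolar type 2 markers summed to 36026, 44842 and 47587, with 3 of 6 higher in the operated lung and 1 of 6 in the non-operated lung. Neither of 2 counted ciliated cell markers reached 2-fold, and of 3 counted red blood cell markers 1 was higher in each lung. The part of these cell types in the division gene ratios was not tested either.

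**Figure D5:**
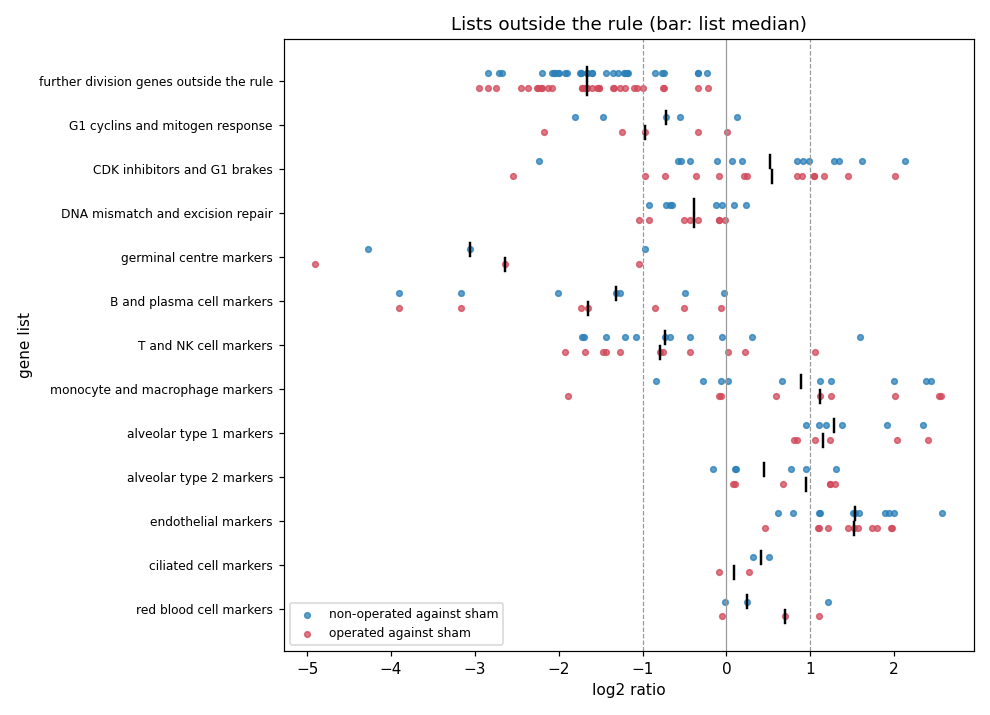
Log2 ratio (x axis) of counted genes (points) in lists outside the naming rule (y axis), for the non-operated (blue) and the operated (red) lung against sham, with list medians as black bars and dashed lines at 2-fold. Further division genes have a median of -1.66 in each lung, a value set by the floor, and the germinal centre and B cell lists also lie to the left. The endothelial and alveolar type 1 lists lie to the right, and the CDK inhibitor list has points on both sides with its median to the right.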

How the data were processed

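Lung RNA of 3 minipig samples was read on Affymetrix porcine arrays, after extraction with TRIZOL and biotin labelling by a 3' in vitro transcription kit, per the labels' protocols. The deposited table holds log2 values, per their range. Per the submitters' processing notes they come from MAS5, which scales each array separately, and the sources used here give no version or scaling target. Of 23935 probe sets left after 64 reporter controls, 10069 had 1 gene in the platform annotation, 198 had several and were not named, and 13668 are unnamed here. All 142 member probe sets matched the RefSeq pig table of Sscrofa11.1 by gene identifier, with 0 symbols changed. A gene was represented by its probe set of highest mean log2 value over the arrays.

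Ratios were computed with Python 3.11.15, numpy 2.4.6 and pandas 2.3.3 as differences of log2 signal, and the calculation was tested on simulated data. No test was made, since each group is 1 array, and precision is limited by that number. Scaling, floor, probe set choice, threshold and members were varied. Members, role groups and lists were chosen with earlier results of these data known, and the grouping of subunits by complex and the role of POLDIP2 and POLDIP3 were set after their values were seen. Named are up to 5 genes per role by signal, the 10 lowest and 5 highest ratios of each comparison, members whose probe sets disagree, and up to 4 genes of each further list. Other members and list genes are named as examples, chosen after their values were seen.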

Additional observations from a re-analysis of the deposited data

How the results depend on the processing

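The members' counts and medians were recomputed under 13 other settings. No median changed sign in a comparison with sham. A floor at the 75th percentile left 15 genes lower in the operated and 15 in the non-operated lung, and 2 higher in the latter. Counting only genes above the floor on all 3 arrays gave 26 and 24 lower, and a 3-fold threshold gave 26 and 24 lower with 1 and 1 higher. With the mean of all probe sets, 2 were higher in the non-operated lung. Without the 31 genes of other processes, 0 were higher in either lung, and the median in the non-operated lung was -1.28. Between the operated and the non-operated lung, 1 member was higher without a floor and 1 with a floor at the 25th percentile. The higher floor, the stricter threshold and the shorter gene lists call fewer genes by construction. The probe set mean takes in probe sets below the floor before the floor is applied. It left 79 members counted in the operated lung against sham, in place of 88. Median, quantile and gene-based centring left 36 or 37 genes lower in the non-operated lung and 41 in the operated lung. Of 196 recomputed ratios of the 10 lowest genes in each comparison with sham, 0 changed sign and 192 stayed at least 2-fold lower, but 27 moved by more than the spread between probe sets. The 75th percentile floor took TOP2A in the operated lung from -3.67 to -2.73 and CCNB2 and RFC3 there to -0.99 and -0.96. The probe set mean took UBE2C in the operated lung from -2.92 to -1.21, the latter a bound set by the floor. Counts without a floor or above it on all 3 arrays for division genes outside the naming rule were added after the data were seen. No paired analysis was possible because each group holds 1 array and the labels give no replicate numbers.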
